A study of Mus musculus with 14 samples.

Results

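Cysteine starvation was compared with no treatment in wild-type mouse embryonic fibroblasts (MEFs), cells grown out of the mid-gestation embryo. The comparison used 4 of the 14 messenger RNA libraries of the series: 2 from cells labelled cysteine starvation and 2 from untreated cells labelled NT. All 1399 transcripts in the deposited tables entered it, and 1385 of them matched a gene symbol. The other groups used beside it were full amino acid starvation and a separate untreated group labelled NT2, with 2 libraries each, from the same wild-type cells. The labels give no duration of starvation, medium, passage or embryo of origin. They do not say which untreated group belongs with which treatment, and NT was taken as the control by its name and numbering. Nor do they say that the replicates are separate cultures, so each p-value below measures only the spread between these libraries.

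Cysteine is a sulphur-containing amino acid needed for protein, for the antioxidant glutathione and for iron-sulphur clusters. Most cultured cells take it up as its oxidised dimer, cystine, through the exchanger system xc-, made of a light chain encoded by Slc7a11 and the heavy chain encoded by Slc3a2. When an amino acid runs short, uncharged tRNA activates the kinase GCN2, which phosphorylates the initiation factor eIF2. General translation then slows while the transcription factor ATF4 is made. ATF4 is known to raise genes for amino acid transporters, serine and one-carbon enzymes and tRNA synthetases. Lack of cysteine can also end in ferroptosis, an iron-dependent death by lipid peroxidation.

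The 4 libraries differed in their counts and make-up. The NT libraries held 33990 and 25697 counts in the listed transcripts, and the cysteine-starved ones 51224 and 46925. The median count per transcript was 7 and 3 in NT, against 16 and 10 in cysteine starvation. In NT replicate 2, 884 of the 1399 transcripts had 3 counts or fewer, and 27.7% of transcripts had a single count. Transcripts of Luc7l2, Pglyrp3 and Pigl alone held 36.0% and 54.5% of the counts of the NT libraries, 20.5% and 33.1% of the starved ones, and 3.39% ± 0.14 (SD, n = 2) in NT2. The rank correlation over transcripts within a group was 0.556 for NT and 0.830 for cysteine starvation. Values below are scaled CPM, the count as a rate against a library size corrected with the trimmed mean of M values. On that scale 1 count equalled 24.6 and 63.6 CPM in NT replicates 1 and 2, and 11.1 and 16.9 CPM in cysteine starvation replicates 1 and 2. No listed transcript had a count of 0 in any library, so a loss to 0 could not be seen.

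No transcript passed an adjusted p of 0.05 in cysteine starvation against NT (0% of 1399) by the quasi-likelihood test of edgeR, Benjamini-Hochberg adjusted. The smallest adjusted p in edgeR was 0.180. At an unadjusted p under 0.05 edgeR placed 33 transcripts higher (2.36%) and 121 lower (8.65%) in cysteine starvation, while DESeq2 also called 0 after adjustment and placed 6 higher and 84 lower before it. Both starved libraries lay above both NT libraries for 337 transcripts (24.1%) and below both for 298 (21.3%). These 4 shares are the background against which the counts in the gene groups below are to be read. The median log2 fold change over all transcripts was 0.02. Scaling by the total of the listed transcripts moved that median to 0.71, so levels are relative to the scaling.

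Most measured genes of amino acid transport, synthesis and tRNA charging had higher levels in the starved libraries than in NT, without passing the adjusted test. Of 17 measured members, 15 had a log2 fold change above 0, with a median of 1.08. In 12 of the 17 both starved libraries lay above both NT libraries, and in none below, beside the 24.1% and 21.3% of all transcripts. None of the 17 passed the adjusted threshold, and 5 had an unadjusted p under 0.05. The group's direction comes with sparse counts: 8 of the 17 genes had a single count in NT replicate 2. In bulk RNA a smaller share of cells and less RNA per cell cannot be told apart.

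**Figure D1:**
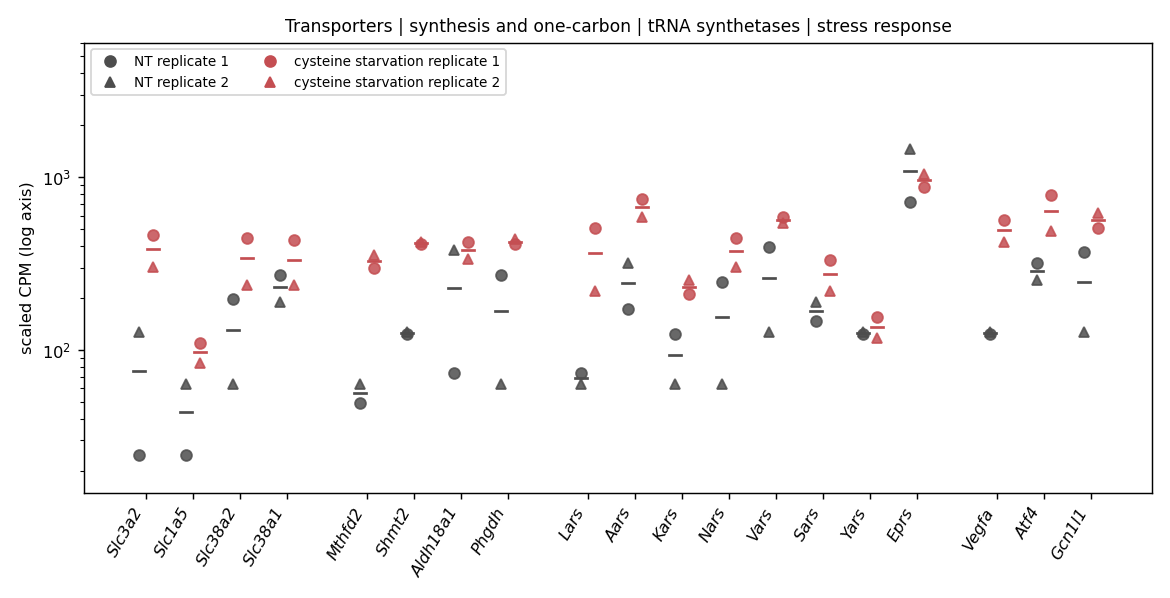
Scaled CPM on a log axis for 16 of the 17 amino acid genes and the 3 stress response genes, in blocks by role. Circles are replicate 1, triangles replicate 2, grey NT, red cysteine starvation, and short lines are group means; for Slc3a2, Mthfd2, Shmt2, Lars and Vegfa the red points stand well clear of the grey ones.

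Among the 4 measured transporters all had a log2 fold change above 0, with a median of 1.29. Slc3a2 encodes the heavy chain (CD98) that carries the cystine exchanger and the large neutral amino acid transporter to the cell surface. Its counts were 1 and 2 in the NT libraries and 42 and 18 in the starved ones, or 24.6 and 127 CPM against 464 and 304 CPM. Both starved libraries were higher than both NT libraries, and this was the highest log2 fold change of all 1399 transcripts, 2.76 ± 0.80 (SE, edgeR, adjusted p = 0.180). With 3 counts in NT, the scaled ratio of counts was 7.53 with an exact 95% interval of 2.45 to 37.5, which covers counting error only. Like the intervals below, it does not allow for the absence of counts of 0 from the tables. Its light chain partner, Slc7a11, was not analysed here.

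Slc38a2, a sodium-coupled carrier of small neutral amino acids known to be induced when they are lacking, stood at 197 and 63.6 CPM in NT and 442 and 236 CPM in cysteine starvation. The groups did not overlap, with a log2 fold change of 1.17 ± 0.67 (SE, edgeR, adjusted p = 0.547). Slc1a5 encodes ASCT2, an exchanger of neutral amino acids that brings in glutamine. It had 1 count in each NT library and 10 and 5 in the starved ones, a ratio of 2.82 with an exact 95% counting interval of 0.656 to 25.4. Slc38a1, which carries glutamine, overlapped between the groups, at 271 and 191 CPM in NT and 431 and 236 CPM in cysteine starvation.

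The measured enzymes of amino acid synthesis and one-carbon metabolism had a median log2 fold change of 1.08, with 4 of 5 above 0 and 3 of 5 whose starved libraries lay above both NT libraries. Mthfd2, a mitochondrial folate enzyme, had 2 and 1 counts in NT and 27 and 21 in cysteine starvation, or 49.3 and 63.6 CPM against 299 and 355 CPM. Both starved libraries were higher than both NT libraries, whose values rest on 3 counts in all, with a log2 fold change of 2.54 ± 0.78 (SE, edgeR, adjusted p = 0.182) and a ratio of counts of 6.02 (exact 95% counting interval 1.94 to 30.2). Shmt2 makes glycine from serine in mitochondria and supplies the folate units that Mthfd2 uses. It had 5 and 2 counts in NT and 37 and 25 in cysteine starvation, or 123 and 127 CPM against 409 and 422 CPM. The log2 fold change was 1.72 ± 0.66 (SE, edgeR, adjusted p = 0.317).

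Phgdh and Aldh18a1 were less uniform. Phgdh, the entry step of serine synthesis from glycolysis, read 271 and 63.6 CPM in NT and 409 and 439 CPM in cysteine starvation, so the NT libraries spread more widely than the starved ones. Aldh18a1, which starts proline synthesis from glutamate, overlapped between groups at 73.9 and 381 CPM in NT and 420 and 338 CPM in cysteine starvation. Its log2 fold change was 1.08, and -0.05 without NT replicate 1.

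Aminoacyl-tRNA synthetases, the enzymes that load tRNAs, gave 7 of 8 measured members above 0 with a median of 0.98, and 6 whose starved libraries lay above both NT libraries. Lars, for leucine, had 3 and 1 counts in NT and 46 and 13 in cysteine starvation, which is 73.9 and 63.6 CPM against 509 and 220 CPM. The starved libraries were both higher but differed from each other, and the log2 fold change was 2.36 ± 0.74 (SE, edgeR, adjusted p = 0.182). Aars, for alanine, stood at 172 and 318 CPM in NT and 752 and 591 CPM in cysteine starvation, with no overlap and a log2 fold change of 1.57 ± 0.68 (SE, edgeR, adjusted p = 0.379). Kars, Nars, Vars and Sars, for lysine, asparagine, valine and serine, also did not overlap, and their log2 fold changes lay between 0.78 and 1.10. Yars, for tyrosine, was at 0.16. Eprs, which joins glutamate and proline to their tRNAs, was at 715 and 1462 CPM in NT and 873 and 1047 CPM in cysteine starvation, so that the starved libraries lay between the NT ones.

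Promoters are shown for Slc3a2 and Mthfd2, the 2 genes with the highest log2 fold changes, and for Aars, the synthetase with the most counts among those that did not overlap, because a binding element for ATF4 and its C/EBP partners is known in many genes of amino acid response. Each sequence covers the 250 bases before the start in the RefSeq table (GRCm38.p6), read on the gene's strand; capitals mark matches to TGATGNAA, the core of that element, or to TGACNNNGC, the core of the antioxidant element bound by NRF2, on either strand. The Aars window is chr8:111033592-111033841 on the plus strand, the Mthfd2 window chr6:83317605-83317854 and the Slc3a2 window chr19:8713898-8714147, both on the minus strand.
Aars promoter: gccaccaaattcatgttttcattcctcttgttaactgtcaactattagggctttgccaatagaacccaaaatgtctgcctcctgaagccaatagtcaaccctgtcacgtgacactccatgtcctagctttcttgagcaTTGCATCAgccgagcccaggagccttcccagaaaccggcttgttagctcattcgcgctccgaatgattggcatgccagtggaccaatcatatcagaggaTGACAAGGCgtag
Mthfd2 promoter: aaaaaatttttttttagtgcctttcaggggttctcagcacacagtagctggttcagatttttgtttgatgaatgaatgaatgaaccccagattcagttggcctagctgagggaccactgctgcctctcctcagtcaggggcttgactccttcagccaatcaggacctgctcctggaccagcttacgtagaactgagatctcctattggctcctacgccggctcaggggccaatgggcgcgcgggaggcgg
Slc3a2 promoter: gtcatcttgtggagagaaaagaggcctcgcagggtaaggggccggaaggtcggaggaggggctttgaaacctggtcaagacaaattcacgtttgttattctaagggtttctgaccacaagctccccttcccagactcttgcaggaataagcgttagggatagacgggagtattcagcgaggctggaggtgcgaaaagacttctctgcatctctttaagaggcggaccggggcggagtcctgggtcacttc
The Aars window held a TGATGNAA match on the minus strand 112 bases before the start and a TGACNNNGC match 13 bases before it. The Mthfd2 and Slc3a2 windows held neither set of letters, which says nothing about sites elsewhere in these genes. The RefSeq table had promoters for 13 of the 20 amino acid and stress genes, 14 promoters in all, searched from 250 bases before to 50 after the start. TGATGNAA was found in 2 of the 14, those of Aars and Yars, against 3.97% of all 32851 promoters of the table and 2.14% of those of the listed transcripts. TGACNNNGC was found in 3 of the 14, those of Phgdh, Aars and Slc38a2, against 12.4% of all promoters and 15.2% of those of the listed transcripts.

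The 3 measured members of the integrated stress response list were all higher in both starved libraries. Atf4, the transcription factor at the centre of the response, stood at 320 and 254 CPM in NT and 785 and 490 CPM in cysteine starvation. The groups did not overlap, with a log2 fold change of 1.11 ± 0.62 (SE, edgeR, adjusted p = 0.529). Vegfa, the angiogenic growth factor, is also an ATF4 and hypoxia target. It had 5 and 2 counts in NT and 51 and 25 in cysteine starvation, or 123 and 127 CPM against 564 and 422 CPM. The log2 fold change was 1.97 ± 0.65 (SE, edgeR, adjusted p = 0.215). It lay between 1.72 and 2.15 with any 1 of the 4 libraries left out, on these few NT counts. Gcn1l1 encodes GCN1, which helps uncharged tRNA activate GCN2. It read 370 and 127 CPM in NT and 509 and 625 CPM in cysteine starvation, for a log2 fold change of 1.004 ± 0.62 (SE, edgeR, adjusted p = 0.560).

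Single libraries moved these values. For the 17 amino acid genes the median log2 fold change was 1.08 with all libraries, 1.55 without NT replicate 1 and 0.87 without cysteine starvation replicate 1. Slc3a2 ranged from 1.55 without NT replicate 1 to 3.85 without NT replicate 2; its NT counts were 1 and 2. Mthfd2 and Shmt2 moved less, between 2.26 and 2.66 and between 1.64 and 1.73 when either NT library was left out. Their NT values also rest on few counts, 2 and 1 for Mthfd2 and 5 and 2 for Shmt2. Phgdh, Nars and Vars went from 1.07, 1.02 and 0.93 to 2.64, 2.47 and 2.08 without NT replicate 1, and to 0.64, 0.61 and 0.51 without NT replicate 2.

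**Figure D2:**
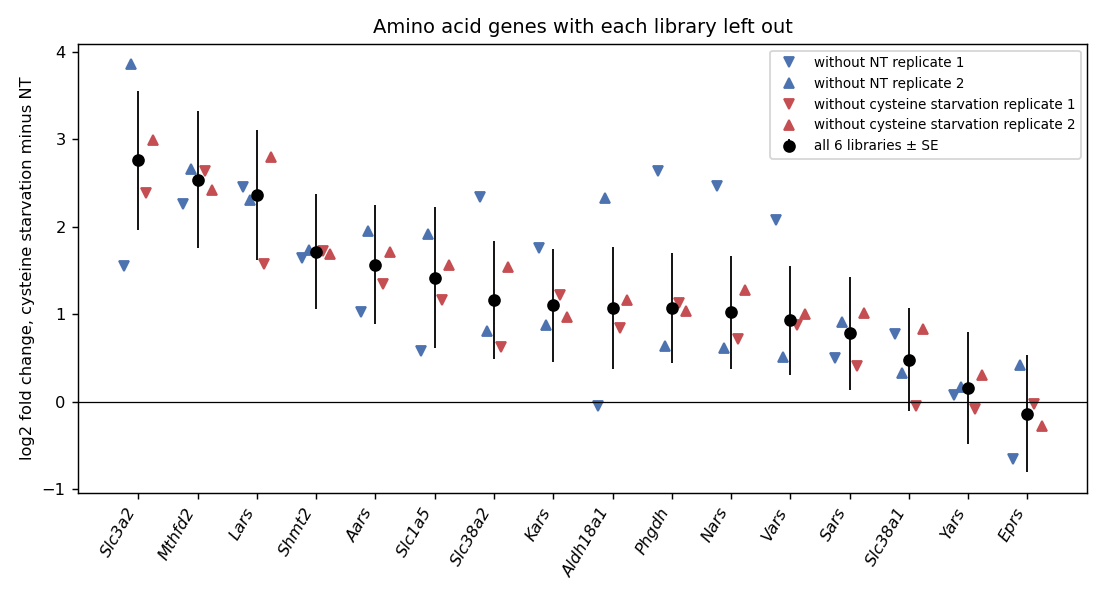
Log2 fold change of 16 of the 17 amino acid genes in cysteine starvation minus NT with all 6 libraries of the fit (black, bars are SE) and with each NT library (blue) or starved library (red) left out. Slc3a2, Mthfd2, Lars, Shmt2 and Aars stay above 1 in every setting drawn; Aldh18a1 crosses 0 without NT replicate 1.

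A ratio of counts within each library needs no scaling between libraries. Per 100 counts of the 49 cytosolic ribosomal protein transcripts, the 17 amino acid genes had 17.0 and 35.2 counts in NT against 31.0 and 26.2 in cysteine starvation. They had 14.3 and 13.7 in NT2, and 44.9 and 30.3 with all amino acids removed. The NT libraries lay on either side of the starved ones, and 23 of the 56 amino acid counts in NT replicate 2 were Eprs. Without Eprs, a choice made after its values were seen, the ratio was 13.2 and 20.8 in NT and 27.1 and 21.5 in cysteine starvation, which no longer overlapped but came close; it was 25.6 and 23.6 with all amino acids removed. Atf4, Vegfa and Gcn1l1 together had 4.28 and 5.03 counts per 100 ribosomal protein counts in NT, 8.31 and 6.90 under cysteine starvation, 5.77 and 3.71 with all amino acids removed, and 3.55 and 3.31 in NT2. For these 3 genes both starved libraries stood above the other 6.

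With NT2 as the control, in an edgeR fit of all 14 libraries, 168 transcripts passed an adjusted p of 0.05 as higher in cysteine starvation (12%) and 80 as lower (5.72%). NT2 carried many more counts, with a median of 61 and 52 per transcript, but cysteine starvation and the separate set of libraries cannot be told apart in this contrast. It also shares the starved libraries with the contrast against NT. The SEs and p-values of every fit with NT2, here and below, use a spread pooled over all 14 libraries (common dispersion 0.030). That is smaller than the spread in the 6 libraries of NT and both starvation groups (0.108). These SEs and p-values may thus be too small for the starved libraries. Of the 20 amino acid and stress genes, 8 passed as higher: Slc3a2, Slc1a5, Mthfd2, Shmt2, Lars, Eprs, Atf4 and Vegfa. Among these 8, Eprs was not higher against NT, at -0.14. Slc3a2 read 123 and 165 CPM in NT2 on that fit's scale and 693 and 451 CPM in cysteine starvation, a log2 fold change of 2.04 ± 0.33 (SE, edgeR, adjusted p = 0.000422). Vegfa read 154 and 213 CPM in NT2 and 842 and 626 CPM in cysteine starvation, and had 2.04 ± 0.26 (SE, edgeR, adjusted p = 6.29e-05). Shmt2 had 1.204 ± 0.27 (adjusted p = 0.00541), Mthfd2 1.03 ± 0.29 (adjusted p = 0.0234) and Atf4 0.67 ± 0.22 (adjusted p = 0.0484), all from edgeR. The median over the 17 amino acid genes was 0.55 against NT2, beside -0.02 over all transcripts. Aars and Slc38a2 did not pass against NT2, at 0.28 and 0.14. With NT and NT2 together as the control, edgeR called 8 transcripts higher and 0 lower, and Slc3a2, Mthfd2, Lars, Vegfa and Ptgs1 were among the 8.

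Full amino acid starvation, which removes cysteine with the other amino acids, differed from cysteine starvation in many transcripts but in none of these genes past the threshold. Of the 1399 transcripts 1 was higher in cysteine starvation (0.0715%) and 86 lower (6.15%) at an adjusted p of 0.05 in edgeR. The transcript called higher was Nop56, a core protein of the ribosomal RNA modifying complex. It had 42 and 25 counts in cysteine starvation but only 1 and 3 in full starvation, or 464 and 422 CPM against 42.2 and 83.8 CPM. The log2 difference on these few counts was 2.69 ± 0.72 (SE, edgeR, adjusted p = 0.0231). In the full starvation libraries 639 and 415 of the 1399 transcripts had 3 counts or fewer. None of the 17 amino acid genes passed, and the smallest adjusted p among them was 0.163. Their median difference was 0.55, beside 0.14 over all transcripts. The median log2 fold change against NT was 1.08 for cysteine starvation and 0.87 for full starvation, both measured against the same NT libraries. Of the 3 stress response genes Vegfa had the smallest adjusted p, at 564 and 422 CPM in cysteine starvation and 211 and 83.8 CPM in full starvation, a log2 difference of 1.83 (edgeR, adjusted p = 0.0604).

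Among all transcripts ranked by p within those of at least 20 counts and no overlap, the 12 highest held Slc3a2, Mthfd2, Lars, Shmt2 and Vegfa, described above. The other 7 were Ptgs1, Nid1, Cct4, Ccn1, Nomo1, Acta2 and a transcript with no symbol. Ptgs1, the constitutive cyclooxygenase COX-1, stood at 73.9 and 63.6 CPM in NT and 287 and 371 CPM in cysteine starvation, a log2 fold change of 2.16 ± 0.72 (SE, edgeR, adjusted p = 0.215). Nid1, a linker protein of basement membranes, read 172 and 127 CPM against 564 and 473 CPM. Acta2, smooth muscle actin, read 148 and 191 CPM against 365 and 574 CPM. None of these passed the adjusted threshold, and the lack of overlap was a condition of the ranking. Together the 12 had 56 and 18 counts in the NT libraries and 481 and 261 in the starved ones. The starved libraries thus carried them past the minimum of 20 counts. Ccn1, a matricellular target of YAP, and Cct4, a chaperonin subunit, had log2 fold changes of 1.64 and 1.68. Of the 12, 7 had a single count in NT replicate 2 (58.3%, beside 27.7% of all transcripts), among them Ptgs1, Ccn1, Cct4, Nomo1 and the transcript with no symbol. The contrast against NT2 shares the starved libraries by which these 12 were ranked; there their values ran from -0.13 for Acta2 to 2.04 for Vegfa.

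The 12 lowest ranked were Pde7a, 8030462N17Rik, C1ql3, Prim2, Ctrb1, Ccdc88c, Fam43a, Adamts13, Cubn, Pglyrp4, 4930544D05Rik and Cby3, at log2 fold changes of -2.69 to -2.08. They include a pancreatic protease precursor (Ctrb1), the intestinal and renal receptor cubilin (Cubn), a plasma protease that trims von Willebrand factor (Adamts13) and a peptidoglycan recognition protein (Pglyrp4). Pde7a, a cyclic AMP phosphodiesterase, stood at 271 and 254 CPM in NT and 33.2 and 50.7 CPM in cysteine starvation, a log2 fold change of -2.64 ± 0.69 (SE, edgeR, adjusted p = 0.180). Prim2, the large primase subunit, read 296 and 1589 CPM in NT and 111 and 220 CPM in cysteine starvation. NT replicate 2 was much the higher of the NT libraries for Prim2, Fam43a, Cubn and Pglyrp4. Without NT replicate 1, edgeR called 49 transcripts lower, 8 of these 12 among them, and 1 higher, Rpl6; leaving out any other of the 4 libraries gave 0 calls. Against NT2 all 12 had a positive log2 fold change, from 0.50 to 3.87, and 6 of them passed.

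**Figure D3:**
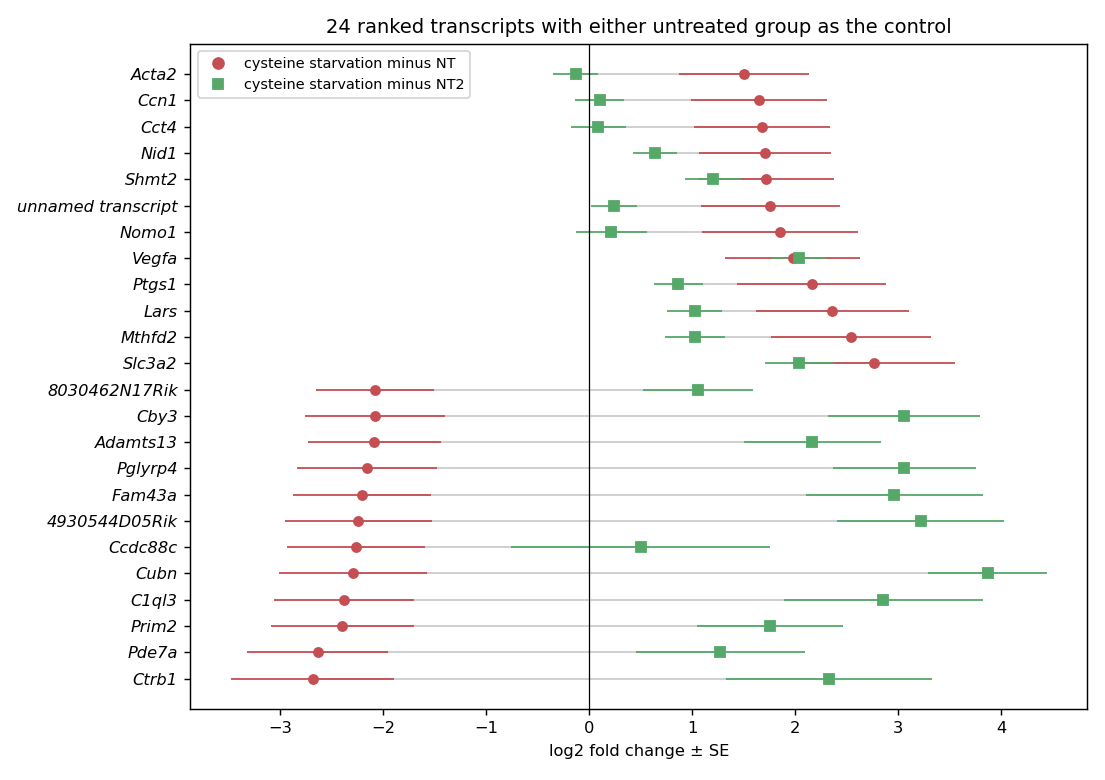
Log2 fold change ± SE of the 12 highest and 12 lowest ranked transcripts in cysteine starvation minus NT (red circles) and minus NT2 (green squares). The 12 lowest all move to the other side of 0, at 0.50 to 3.87, when NT2 is the control. Both contrasts share the starved libraries by which the transcripts were ranked.

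The pattern of the lower transcripts extended to those with the most counts. Of 87 transcripts with a mean of at least 1000 CPM over the 2 groups (a count level, not corrected for length), 46 had a log2 fold change below -1, with a median of -1.42. In 35 of the 46 both starved libraries were below both NT libraries, which a cut on the fold change of the same libraries itself favours. With NT2 as the control all 46 were above 0, at a median of 3.55. The 3 dominant transcripts belonged to them. Luc7l2, a splicing factor gene, had a log2 fold change of -1.73, Pglyrp3, another peptidoglycan recognition protein, -1.74, and Pigl, an enzyme of glycolipid anchor synthesis, -1.40. The level cut and the fold were chosen after the values were seen.

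**Figure D4:**
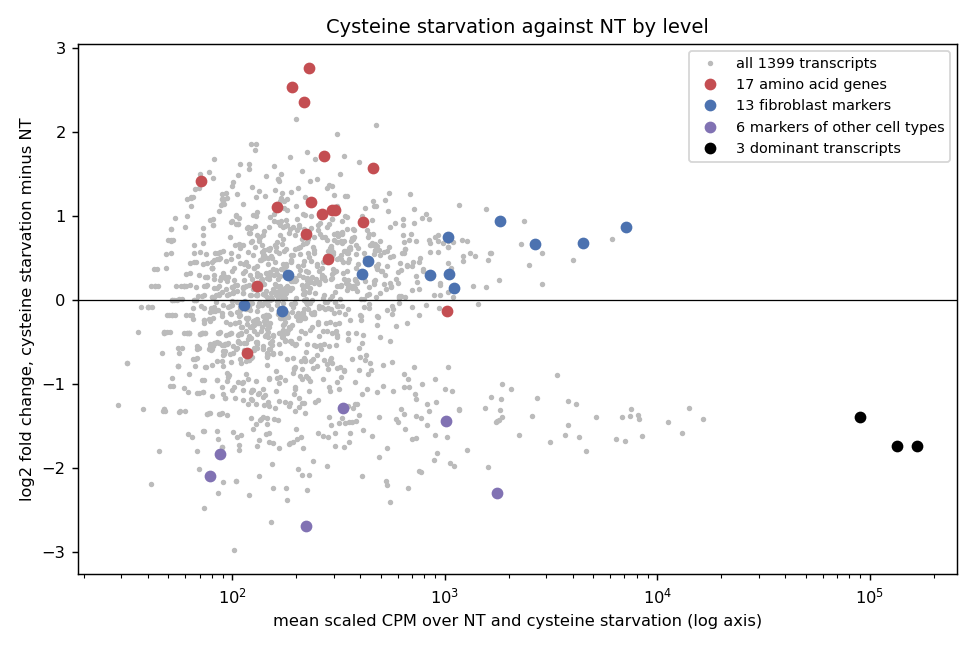
Log2 fold change in cysteine starvation minus NT against mean scaled CPM over both groups, on a log axis, for all 1399 transcripts. Amino acid genes (red) lie mostly above 0 and fibroblast markers (blue) near or above it. The 6 detected markers of other cell types (purple) and the 3 dominant transcripts (black) lie below it. Of the 87 transcripts of at least 1000 CPM, 46 have a log2 fold change below -1, the 3 dominant transcripts among them.

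The cells' identity was checked with markers. Of 21 fibroblast markers 13 were measured, among them Col1a1, Col1a2, Col3a1, Fn1 and Vim, with a median log2 fold change of 0.31 and 11 above 0. Against NT2 their median was -0.10, with 4 of 13 above 0. Of 92 markers of other cell types 6 were measured: Cdh1, Flt1, Ttn, Srpk3, Ctrb1 and Cubn. All 6 were lower in both starved libraries than in both NT libraries, with a median of -1.97. With NT2 as the control, 5 of the 6 were above 0, at a median of 2.07. Their summed level was 3474 and 7627 CPM in NT, 1028 and 1857 CPM under cysteine starvation, and 5396 and 6620 CPM with all amino acids removed. Like every listed transcript, each of the 6 had at least 1 count in every library. None of the markers on the immune, neural and erythroid lists was measured. How the listed transcripts were chosen is not given, so a marker missing from the tables may still have been expressed. The summed level of these 6, like the share of the 3 dominant transcripts, moved with the comparison, and its part in the fold changes of the other groups was not tested.

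Genes of antioxidant defence and iron handling, which bear on ferroptosis, were few in these tables. Of 5 antioxidant genes 3 were above 0, with a median of 0.38, and 2 of the 5 were higher in both starved libraries. Against NT2 their median was -0.09. Gpx4, the enzyme that reduces lipid peroxides, had 1 count in each NT library and 9 and 4 in cysteine starvation, a ratio of 2.45 with an exact 95% counting interval of 0.554 to 22.3. Prdx1, a peroxiredoxin, stood at 172 and 191 CPM in NT and 122 and 101 CPM in cysteine starvation, lower in both starved libraries, with a log2 fold change of -0.64 ± 0.59 (SE, edgeR, adjusted p = 0.728). Sqstm1, the autophagy receptor p62 and an NRF2 target, overlapped at 246 and 254 CPM in NT and 630 and 253 CPM in cysteine starvation; against NT2 its log2 fold change was 1.09 and passed (edgeR, adjusted p = 0.0187). Fth1, the ferritin heavy chain, read 419 and 191 CPM against 652 and 490 CPM, and Ncoa4, the receptor that delivers ferritin to lysosomes, 123 and 127 CPM against 144 and 135 CPM. All 4 iron and ferroptosis genes were above 0, with a median of 0.48, and -0.43 against NT2.

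Lysosomal and autophagy genes were mixed, with 4 of 6 above 0 and a median of 0.45. Psap, the precursor of the saposins, read 73.9 and 63.6 CPM in NT and 99.5 and 186 CPM in cysteine starvation. Fnip2, a folliculin partner in lysosomal nutrient sensing, read 197 and 191 CPM in NT and 77.4 and 101 CPM in cysteine starvation, a log2 fold change of -1.13 ± 0.62 (SE, edgeR, adjusted p = 0.512). Against NT2 the lysosomal median was -0.54. Endoplasmic reticulum chaperones had a median of 0.16 over 9 genes, of which Hspa5 (BiP) had 0.63 and Pdia6 0.67. Against NT2 their median was -0.99, with 0 of 9 above 0. Heat shock chaperones had a median of 0.15 over 13 genes, with the mitochondrial chaperone Hspa9 at 1.27 and Hsph1 at -0.57; against NT2 the median was -0.27.

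The translation machinery was above the centre of all transcripts in the contrast with NT. Among 49 cytosolic ribosomal protein transcripts 41 were above 0, with a median of 0.56, and 26 were higher in both starved libraries against 1 lower. The values ran from -0.63 for Rpl11 to 1.35 for Rpl14, which read 148 and 191 CPM in NT and 354 and 490 CPM in cysteine starvation. Against NT2 only 2 of the 49 were above 0, at a median of -0.35. Ribosomal protein genes have many processed copies in the genome, and the handling of shared reads is not given in the sources used here. All 14 initiation factors were above 0, with a median of 0.27 and Eif3a highest at 1.03, and 4 of 6 elongation factors were, with a median of 0.30. Nucleolar and ribosome assembly factors had a median of 0.20 over 10 genes and held both Nop56 at 1.25 and Heatr1 at 1.27, higher in both starved libraries, and Wdr12 at -1.56, lower in both. Against NT2 the initiation factors had a median of 0.009 (7 of 14 above 0) and the elongation factors -0.38 (2 of 6). The nucleolar factors had 0.43 there (7 of 10).

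Matrix and contractile genes, which mark the fibroblast state, showed a similar displacement. Of 32 extracellular matrix genes 27 were above 0 with a median of 0.64, and 18 were higher in both starved libraries. Lox, which crosslinks collagen, read 370 and 318 CPM in NT and 708 and 760 CPM in cysteine starvation, a log2 fold change of 1.06 ± 0.63 (SE, edgeR, adjusted p = 0.547). P4ha1, a collagen prolyl hydroxylase, was lower in both starved libraries, at 517 and 636 CPM against 254 and 388 CPM. Contractile genes and YAP targets had a median of 0.70, with 17 of 18 above 0; the exception was Tpm2, a tropomyosin, at 246 and 127 CPM in NT and 77.4 and 67.5 CPM in cysteine starvation. Against NT2 the medians were 0.10 and 0.05. Splicing factors and hnRNPs had a median of 0.55, with 25 of 27 above 0, and -0.17 against NT2. The amino acid genes had 15 of 17 members above 0 with either untreated group, contrasts that share the starved libraries. The 15 were not the same genes. Eprs was at -0.14 against NT and 1.22 against NT2, and Yars at 0.16 against NT and -0.068 against NT2. The median of the 17 was 1.08 against NT and 0.55 against NT2. The difference between lists was not tested.

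**Figure D5:**
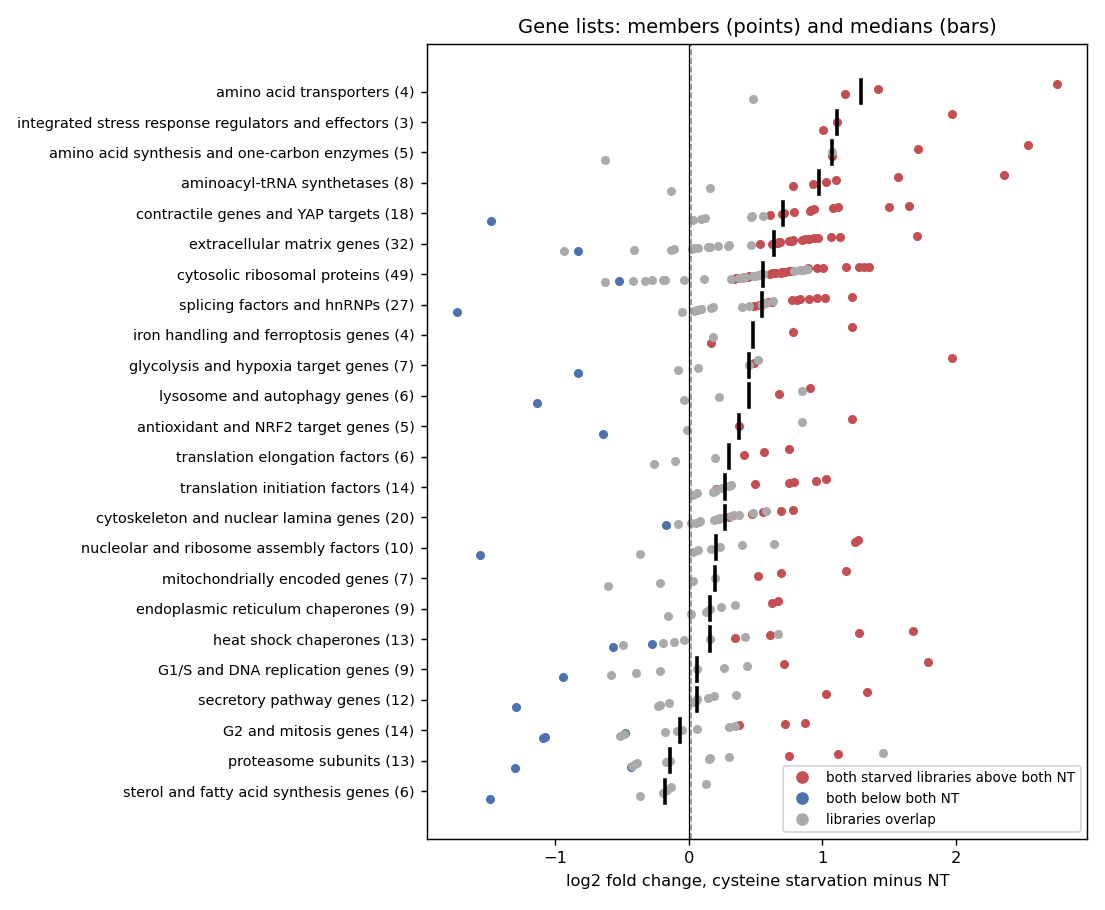
Log2 fold change in cysteine starvation minus NT for the members of 24 gene lists with 3 or more measured members (number in brackets), ordered by list median (black bar). Red points have both starved libraries above both NT libraries, blue both below, grey overlap; the dashed line is the median of all transcripts, and the 4 lists at the top are the amino acid and stress response lists with medians of 0.98 to 1.29.

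The remaining lists had medians from -0.18 to 0.45 against NT. Cytoskeletal and lamina genes had a median of 0.27 over 20 genes, secretory pathway genes 0.06 over 12, mitochondrially encoded genes 0.20 over 7, and proteasome subunits -0.14 over 13. Scaled by the total of the listed transcripts the proteasome median was 0.55, and with DESeq2's size factors the secretory pathway median was -0.01. Against NT2 the mitochondrially encoded genes had a median of -1.02 with 0 of 7 above 0, the sterol and fatty acid genes -0.98, the secretory pathway genes -0.44, the glycolysis and hypoxia genes -0.42, the cytoskeletal genes -0.41 and the proteasome subunits -0.21. Glycolysis and hypoxia target genes had a median of 0.45 over 7, the highest being Vegfa, with Gapdh at -0.08. Sterol and fatty acid synthesis genes had 5 of 6 below 0 and a median of -0.18; under scaling by the total the median was 0.53. Fdft1, squalene synthase, was lowest at 296 and 572 CPM in NT and 77.4 and 220 CPM in cysteine starvation.

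Cell cycle genes did not move together. The 9 genes of G1/S and DNA replication had a median of 0.06, with Mcm3, a subunit of the replicative helicase, at 1.79 and Pole, a polymerase subunit, at -0.94. The 14 genes of G2 and mitosis had a median of -0.07, with 3 higher and 3 lower in both starved libraries. Scaling turned both medians: by the total that of G2 and mitosis was 0.65, and with DESeq2's size factors that of G1/S was -0.02. Against NT2 the G1/S median was -0.67 and that of G2 and mitosis -0.28. Mki67, the proliferation marker Ki-67, read 246 and 572 CPM in NT and 210 and 118 CPM in cysteine starvation, a log2 fold change of -1.09 ± 0.59 (SE, edgeR, adjusted p = 0.512), and -1.39 against NT2, where it passed (edgeR, adjusted p = 0.0054). Of the immediate early genes only Srf was measured, at -0.41 with overlapping libraries, and of the interferon response genes Rnf213 at 0.70 and H2-D1 at -0.70.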

How the data were processed

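Messenger RNA from mouse embryonic fibroblasts was captured on oligo(dT), cut from a gel at 50-100 nucleotides, tailed, ligated, copied and amplified, per the labels' protocols; no molecular identifiers are mentioned. The submitters' processing notes list STAR 2.7.10a, cutadapt 2.8, Bowtie 1.2.3 and bcl2fastq 2.20.0.422 as tools, with the build GRCm39; the counter, its strand setting and its annotation were not given in the sources used here. The authors deposited whole-number counts per Ensembl transcript for each library. The tables are named as CPM, but the totals differ between libraries, and among transcripts with at most 10 counts in a replicate pair the spread was near counting noise (mean chi-square 0.819 to 1.15 over the groups), so the values were used as counts. All tables list the same 1399 transcripts, the smallest value is 1, and totals are therefore not sequencing depths. The number of counts limits the precision; intervals cover counting error only.

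Symbols came from GENCODE mouse release 21 (GRCm38), with no coordinates of these transcripts used; promoters came from the RefSeq table (GRCm38.p6). edgeR 4.0.16 in R 4.3.3 fitted the NT group and both starvation groups (6 libraries, 3 residual degrees of freedom) after TMM scaling, without a filter; tests were two-sided and p-values adjusted over 1399 transcripts (Benjamini-Hochberg, threshold 0.05). All 14 libraries were not pooled in the main test because their spread differed (common dispersion 0.108 in the 6, 0.00887 in the 8 others). The fits with NT2 as a control did pool them, at 0.030. Fold changes are fitted log2 values; the SE is the fold change divided by the square root of the F statistic. Named genes were all measured amino acid and stress response genes, the 12 highest and 12 lowest by p among transcripts of at least 20 counts without overlap, 3 members of each other list by p, detected markers of other cell types and the 3 transcripts with the most counts; other genes were named after their values were seen. One of the amino acid genes is not reported here on its own. The members, 26 gene lists and tests were chosen with earlier results of these data known. Lists are described by counts and medians, without a test. Alternatives were other scalings, DESeq2 1.42.0, limma 3.58.1 with voom, a count minimum, other controls, a replicate block and each library left out.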

Additional observations from a re-analysis of the deposited data

How the results depend on the processing

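The median transcript had 7 and 3 counts in the NT libraries, and the test had 3 residual degrees of freedom. No transcript was called in cysteine starvation against NT in edgeR with all 14 libraries or the 4 compared ones, under the other 3 scalings, in DESeq2 or limma voom, with a mean count of at least 20, without the 3 dominant transcripts, or with a replicate block. NT2 as the control gave 168 calls higher and 80 lower, and NT and NT2 together 8 higher and 0 lower. Both used the smaller spread pooled over all 14 libraries. Leaving out 1 library gave 0 to 1 calls higher and 0 to 49 lower, the 1 and the 49 without NT replicate 1. These fits assume that the lone library of a group varies like the other groups, with 2 residual degrees of freedom.

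At an unadjusted p under 0.05 the count of 33 higher became 90 with all 14 libraries in the fit, 133 scaled by the total, 6 in DESeq2, 12 with a mean count of at least 20 (293 transcripts tested), 253 against NT2, 135 against NT and NT2, and 14 to 48 with 1 library left out, lowest without cysteine starvation replicate 1. The count of 121 lower became 9 scaled by the total, 39 with the count minimum, 40 against NT and NT2, and 32 to 182 with 1 library left out: 182 without NT replicate 1, 38 without NT replicate 2 and 32 without cysteine starvation replicate 1. The median of the 17 amino acid genes, 1.08, became 1.78 scaled by the total, 0.77 with the count minimum (3 genes left), 0.55 against NT2, 0.69 against NT and NT2, and 0.87 to 1.55 with 1 library left out.

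The 100 named genes kept their sign in most settings. The log2 fold change changed sign scaled by the total for Eprs (0.71), Prdx1 (0.057), mt-Nd3 (0.074), Acly (0.32), Fasn (0.51) and Srf (0.27); in limma voom for Yars (-0.0163). With 1 library left out it ranged across 0 for Slc38a1 (-0.0496 to 0.83), Aldh18a1 (-0.049 to 2.33), Eprs (-0.65 to 0.42), Yars (-0.0841 to 0.31), mt-Nd3 (-0.87 to 0.27), Psmb6 (-0.0906 to 2.39) and Srf (-1.27 to 0.12). Aldh18a1 and mt-Nd3 turned without NT replicate 1, Eprs and Srf without NT replicate 2, Slc38a1 and Yars without cysteine starvation replicate 1, and Psmb6 without cysteine starvation replicate 2. With NT and NT2 together as the control it did so for Eprs (0.59), C1ql3 (0.22), Fam43a (0.41), Adamts13 (0.029), Cubn (0.84), Pglyrp4 (0.53), 4930544D05Rik (0.47), Cby3 (0.50), Psap (-0.0066), Calr (-0.45), mt-Nd1 (-0.057), Anxa1 (-0.16), P4ha1 (0.40), Luc7l2 (0.92), Srpk3 (1.08), Pglyrp3 (1.49) and Pigl (0.79). With NT2 alone it did so for 54: Eprs (1.22), Yars (-0.068), Acta2 (-0.13), Pde7a (1.27), 8030462N17Rik (1.06), C1ql3 (2.86), Prim2 (1.75), Ctrb1 (2.33), Ccdc88c (0.50), Fam43a (2.96), Adamts13 (2.16), Cubn (3.87), Pglyrp4 (3.06), 4930544D05Rik (3.22), Cby3 (3.06), Gpx4 (-0.59), Fth1 (-0.27), Fnip2 (0.57), Psap (-0.94), Pdia6 (-0.38), Hspa5 (-0.41), Calr (-1.20), Cct7 (-0.12), Rps19 (-0.33), Rps15 (-0.075), Eef1g (-0.42), Eef1a1 (-0.52), Eif3b (-0.061), Wdr12 (0.31), mt-Co2 (-0.84), mt-Nd1 (-0.81), Psmc3 (0.51), Psmb6 (-0.11), Psmd7 (-0.65), Anxa1 (-1.05), P4ha1 (1.63), Fdft1 (0.65), Mcm3 (-0.53), Pole (0.62), Dnmt1 (-0.021), Nusap1 (0.69), Hnrnpul2 (-0.17), Hnrnpd (-0.51), Luc7l2 (3.603), Rnf213 (-0.63), H2-D1 (0.42), Copa (-0.42), Golgb1 (1.01), Arcn1 (-0.13), Cdh1 (1.82), Ttn (0.97), Srpk3 (3.604), Pglyrp3 (4.77) and Pigl (3.01). The cause was not tested.

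The labels give the libraries only a shared number, and same-numbered libraries had deviations correlated at 0.265 between NT and cysteine starvation, -0.206 between NT and full amino acid starvation and -0.056 between the starvations. The replicate block gave 29 higher and 125 lower at an unadjusted p under 0.05, an amino acid median of 1.10, and turned 0 of the 100 signs.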

Other observations

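Over all transcripts, length and base composition had little rank correlation with the log2 fold change. Across the 1385 transcripts with a sequence, which share the same libraries, the Spearman correlation of the log2 fold change of cysteine starvation minus NT was -0.013 with length and 0.050 with GC content. The 12 highest ranked transcripts (11 with a sequence) had a median length of 2813 bases and 50.9% GC. The 12 lowest ranked had 2805 bases and 55.1% GC. Over all transcripts the medians were 4350 bases and 51.0% GC. Both ranked sets were thus shorter at the median than all transcripts, a difference that was not tested.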
